A study of Mustela putorius furo with 2 samples.

Results

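CUX2, POU3F2, RASGRF2, UNC5D, MDGA1 and LAMP5 are 6 genes known as markers of upper-layer neurons of the cerebral cortex. They were chosen by symbol, as 6 of the 28156 features counted in each library, and every one of the 6 had 1 row in both libraries. Their Ensembl ferret identifiers in the deposited feature tables are ENSMPUG00000002207 for CUX2, ENSMPUG00000001529 for POU3F2, ENSMPUG00000008451 for RASGRF2, ENSMPUG00000010096 for UNC5D, ENSMPUG00000013904 for MDGA1 and ENSMPUG00000006451 for LAMP5. Levels are given for each class of nuclei and each cortical band, and detection of several of the genes in 1 nucleus is described in excitatory and inhibitory nuclei.

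Neurons of the upper cortical layers are born late, migrate past the deep-layer neurons and send most of their axons to other cortical areas. CUX2 and POU3F2 (also called BRN2) are transcription factors of this programme, and RASGRF2 encodes an exchange factor that activates Ras and Rac GTPases downstream of calcium. UNC5D encodes a receptor for netrins and FLRT proteins on migrating neurons, MDGA1 a membrane-anchored adhesion protein that binds neuroligins, and LAMP5 a lysosome-associated membrane protein of neurons. Inhibitory neurons arise outside the cortex, in the medial and caudal ganglionic eminences (MGE and CGE), and several of these genes are also used there.

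Nuclei came from frozen somatosensory cortex of ferrets (Mustela putorius furo) labelled as DCX knockouts, although the series text speaks of a knockdown. The DCX product, doublecortin, binds microtubules in young neurons on their way to the cortex, and its loss disturbs layering. One library was labelled as the upper band of the cortex and 1 as the deeper band, and both carried the knockout label. The titles number them as replicates 1 and 2, but their region labels differ, so they are not taken as replicates. Age, sex, the number of animals and the kind of DCX allele are not given in the sources used here, and wild-type tissue was not analysed here, so the values compare the bands of a mutant cortex and not mutant with normal cortex. With 1 library per band there is no replicate, no test was made, and every interval below is a 95% interval that covers counting error only.

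The upper-band library held 66253015 unique molecular identifiers (UMIs, each standing for 1 captured transcript) in 7151 barcodes, and the deeper-band library 78352064 in 9694. Before any removal, 24 barcodes occurred in both libraries. After removal of shallow nuclei and predicted doublets 6261 and 8150 nuclei remained. Levels are given as CPM, the UMIs of a gene scaled to the same total in every class and band. DCX itself gave 78.5 CPM (upper) and 77.2 CPM (deeper), which checks nothing between libraries of the same genotype. Nuclei were clustered without the 6 genes and without the other layer genes, and classes were named by resemblance to marker lists. The excitatory class held 3186 upper-band and 3453 deeper-band nuclei with similar median depths of 10748.5 and 10401 UMIs. The inhibitory class held 1022 and 770 nuclei, and 377 and 624 nuclei stayed unnamed.

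None of the 6 genes was limited to excitatory nuclei, and they differed in where else they were found. CUX2 was highest in excitatory nuclei in both bands. It reached 296 CPM in upper-band and 592 CPM in deeper-band excitatory nuclei, against 122 and 123 CPM in inhibitory nuclei (from here on, a pair of values gives the upper band first). Its level in inhibitory nuclei was 41.4% and 20.8% of the excitatory level. The summed level of 11 excitatory marker genes in the same inhibitory nuclei was 19.2% and 15.4% of that in excitatory nuclei, with 1 of the 11 markers at 0 and the highest single marker at 49.6% and 41.2%, and how far RNA from excitatory nuclei adds to the inhibitory values was not tested. In astrocytes CUX2 was at 5.61% and 2.80% of the excitatory level, and in oligodendrocytes at 4.75% and 3.47%. It stood higher in the smallest classes, at 53.7% and 14.2% in microglia (13 and 7 UMIs) and at 18.2% and 35.7% in vascular cells (25 and 47 UMIs), where the excitatory marker list summed to 21.3% and 10.1% and to 32.7% and 58.5%.

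RASGRF2 was higher in inhibitory than in excitatory nuclei in both bands. It measured 1194 and 1365 CPM in inhibitory nuclei and 362 and 649 CPM in excitatory nuclei, which gives log2 ratios of inhibitory over excitatory of 1.72 and 1.07. UNC5D was near parity between the neuron classes in the upper band, with 133 CPM in inhibitory and 115 CPM in excitatory nuclei. In the deeper band it was again 133 CPM in inhibitory nuclei but 239 CPM in excitatory nuclei. The order of the neuron classes for UNC5D thus depended on the band.

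The genes with the fewest transcripts, MDGA1 and POU3F2, had their highest relative levels in astrocytes. MDGA1 measured 16.6 CPM (20 UMIs) in upper-band and 17.1 CPM (34 UMIs) in deeper-band astrocytes, against 7.36 and 15.6 CPM in excitatory nuclei. In the deeper band these levels did not differ beyond counting error. POU3F2 measured 14.1 CPM (interval 8.21 to 22.6) and 10.6 CPM (6.54 to 16.1) in astrocytes, which was 479% and 239% of its excitatory level. A place in glia is known for POU3F2, a factor also made by neural progenitors. The excitatory marker list summed to 8.93% and 6.69% of its excitatory level in astrocytes, and the highest single marker stood at 77.5% and 42.2%. How far RNA from excitatory nuclei adds to the astrocyte values was not tested.

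LAMP5 measured 59.6 and 99.6 CPM in excitatory nuclei and was spread widely elsewhere. Vascular cells gave 45.1 and 85.4 CPM (21 and 19 UMIs) and microglia 61.1 and 24.0 CPM (5 and 2 UMIs), with intervals that include the excitatory level in all but deeper-band microglia. Oligodendrocytes gave 30.5 and 40.3 CPM, inhibitory nuclei 23.3 and 26.9 CPM, and astrocytes 18.2 and 26.6 CPM. With every nucleus thinned to 1500 UMIs, 3.18% and 4.20% of inhibitory nuclei had a LAMP5 UMI. The shares in oligodendrocytes were 5.03% and 5.35%. The part of free RNA in either share was not tested, so LAMP5 detection over the inhibitory class as a whole is not read as expression. Among inhibitory nuclei LAMP5 was uneven, and 2 subclusters described further on stood far above the rest.

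**Figure D1:**
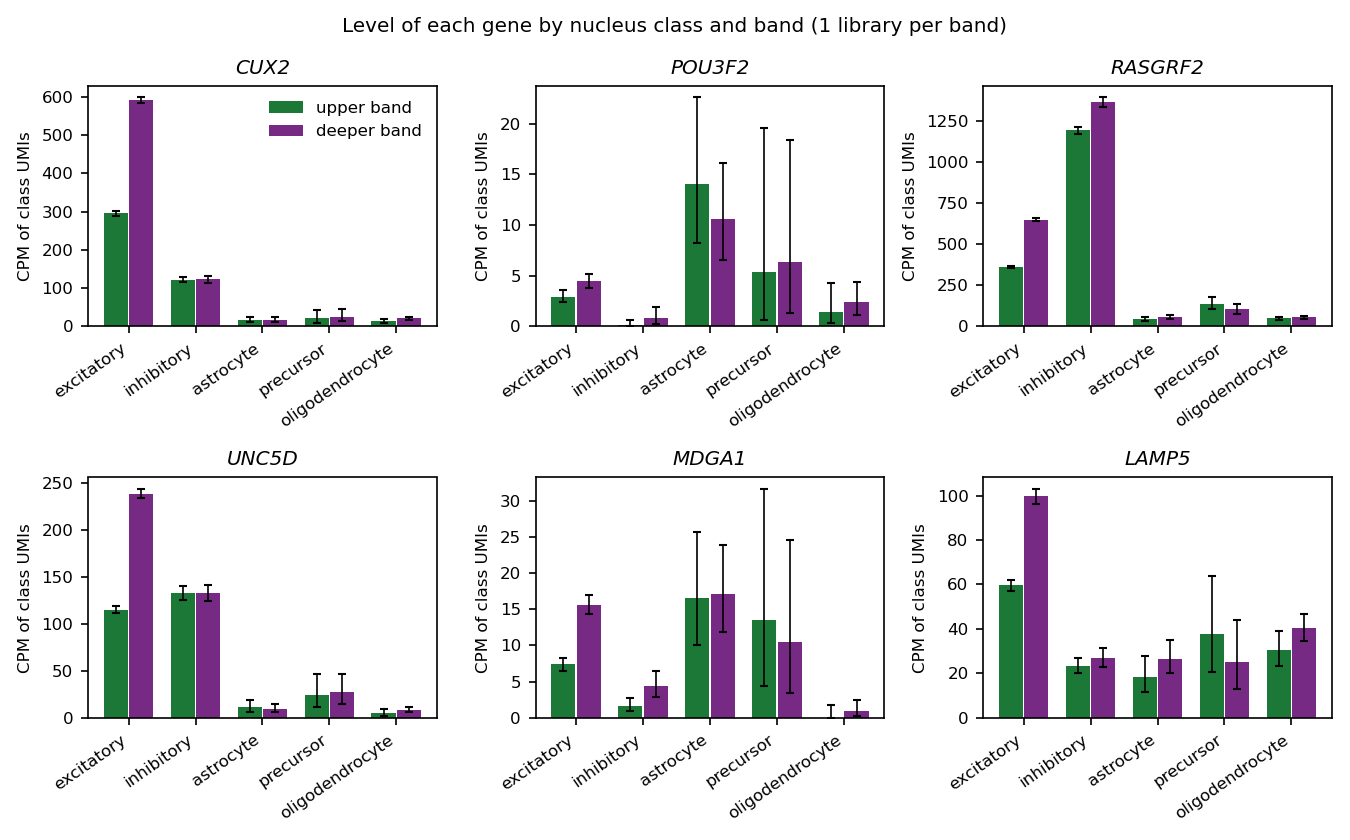
CPM of each class for the 6 genes in excitatory, inhibitory, astrocyte, oligodendrocyte precursor and oligodendrocyte nuclei, upper band in green and deeper band in purple. Bars are the value of 1 library and whiskers exact 95% Poisson intervals. RASGRF2 peaked in inhibitory nuclei (1194 and 1365 CPM), POU3F2 and upper-band MDGA1 in astrocytes, and, of the classes drawn, CUX2 and LAMP5 in excitatory nuclei.

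The comparison of bands asked whether excitatory nuclei of the deeper band carry these upper-layer transcripts at the level seen in the upper band. All 6 genes were higher in the deeper band. CUX2 gave 11049 UMIs (296 CPM) and 22595 UMIs (592 CPM), and the log2 ratio of deeper over upper was 1.00 (0.97 to 1.03). RASGRF2 measured 362 and 649 CPM (log2 ratio 0.84, 0.81 to 0.87). UNC5D measured 115 and 239 CPM (log2 ratio 1.06, 1.00 to 1.11). These 3 had the most UMIs of the set.

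LAMP5 measured 59.6 and 99.6 CPM (log2 ratio 0.74, 0.66 to 0.82). MDGA1 measured 7.36 and 15.6 CPM on 275 and 595 UMIs (log2 ratio 1.08, 0.87 to 1.29). POU3F2 rested on 110 and 169 UMIs, or 2.94 and 4.43 CPM, and its log2 ratio of 0.59 (0.23 to 0.95) lay at the edge of the 1.5-fold size used here. With nuclei thinned to 1500 UMIs the POU3F2 ratio was 0.11, with an interval of -0.89 to 1.14, so its band difference was not detectable at that depth.

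A difference of 1.5-fold or more towards the deeper band was thus found for 6 of the 6 genes. These genes were chosen with earlier results of these data known, so the count is a description. Among the 17581 genes with at least 20 UMIs in excitatory nuclei, 5.51% were at least 1.5-fold higher in the deeper band and 9.81% at least 1.5-fold lower. The median log2 ratio of the 6 genes was 0.92, against -0.03 for all genes tested.

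The share of excitatory nuclei with at least 1 UMI followed the same order. CUX2 was detected in 48.6% of upper-band and 85.2% of deeper-band excitatory nuclei, UNC5D in 48.5% and 70.3%, and RASGRF2 in 65.8% and 82.6%. LAMP5 was detected in 44.3% and 59.5%, MDGA1 in 6.50% and 13.3%, and POU3F2 in 3.26% and 4.69%. Oligodendrocytes, which should lack CUX2, had a CUX2 UMI in 3.38% and 3.93% of nuclei at median depths of 2204 and 1868.5 UMIs. At a common depth of 1500 UMIs, CUX2 was found in 26.7% and 54.4% of excitatory nuclei and in 1.42% and 3.12% of oligodendrocytes, with 17, 6, 81 and 420 shallower nuclei left out in that order.

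At that depth RASGRF2 was found in 33.6% and 50.7% of excitatory nuclei against 7.60% and 7.63% of oligodendrocytes. UNC5D was found in 13.7% and 27.0% against 0.515% and 0.962%, and LAMP5 in 7.70% and 14.0% against 5.03% and 5.35%. Whether LAMP5 in oligodendrocytes is their own or free RNA was not tested. MDGA1 was found in 1.01% and 2.23% of excitatory nuclei against 0 of 776 (interval up to 0.474%) and 1 of 1664 oligodendrocytes. POU3F2 gave 0.536% and 0.580% against 0.258% and 0.240%, with overlapping intervals.

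The difference between bands lay more in how many nuclei had CUX2 transcripts than in how many transcripts such a nucleus had. In nuclei thinned to 5000 UMIs, those with any CUX2 UMI held a mean of 3.40 (upper) and 3.66 (deeper) CUX2 UMIs, while the share of nuclei with any went from 43.9% to 80.9%. RASGRF2 differed in both respects, with a mean of 3.29 UMIs in the 54.1% of upper-band nuclei that had it and 4.22 UMIs in the 75.9% of deeper-band nuclei that had it. UNC5D likewise had 1.67 UMIs in 33.1% of nuclei and 2.15 UMIs in 55.2%. LAMP5 nuclei held 1.23 and 1.32 UMIs, and MDGA1 and POU3F2 were nearly always seen as a single UMI.

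Other genes of the same layers did not follow as a block. Of 15 further upper-layer genes with at least 20 UMIs, 9 had a ratio above 0 and 2 were at least 1.5-fold higher in the deeper band, with a median log2 ratio of 0.14. INHBA, a subunit of activins, went from 1.53 to 2.54 CPM (log2 ratio 0.74), and HPCAL1, a neuronal calcium sensor, from 36.7 to 55.0 CPM (0.59). The axon guidance receptor PLXND1 measured 66.9 and 97.5 CPM and stayed just under 1.5-fold. The 6 genes chosen here thus had a larger median ratio than the wider list of upper-layer genes. Both sets were chosen with earlier results of these data known, so this contrast is a description.

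Deep-layer genes more often went the other way. Of 19 tested, 9 were at least 1.5-fold lower in the deeper band and 1 at least 1.5-fold higher, with a median log2 ratio of -0.31. The shares over all genes tested were 9.81% lower and 5.51% higher. Of the 19, 7 had a ratio above 0, and the interval lay above 0 for 4 and below 0 for 11. FEZF2, a factor of subcortical projection neurons, went from 34.0 to 7.49 CPM (log2 ratio -2.18), and FOXP2, a factor of corticothalamic neurons, from 35.8 to 8.48 CPM (-2.08). The other lower genes were SYT6, HTR2C, BCL11B, TLE4, CCN2, PCP4 and ETV1, with log2 ratios from -1.63 for SYT6 to -0.66 for ETV1. OPRK1, an opioid receptor gene, was the 1 gene at least 1.5-fold higher, at 0.68. Of 3 layer 4 genes, RORB measured 292 and 436 CPM (0.58, just under 1.5-fold), EYA4 was lower at -0.65 and SCNN1A was at -0.16.

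The tested paralogs of RASGRF2, UNC5D and MDGA1 did not share the band difference of these genes. No paralog of CUX2, POU3F2 or LAMP5 could be compared. Of 5 paralogs with at least 20 UMIs in excitatory nuclei, 0 were at least 1.5-fold higher or lower. Over all genes tested the shares were 5.51% higher and 9.81% lower, so this count does not set the paralogs apart from that background. The Ras exchange factor RASGRF1 measured 95.8 and 85.4 CPM (log2 ratio -0.17) beside the 0.84 of RASGRF2. The netrin receptors UNC5A, UNC5B and UNC5C had log2 ratios of 0.02, -0.53 and -0.25 beside the 1.06 of UNC5D. MDGA2 measured 829 and 636 CPM (-0.38) beside the 1.08 of MDGA1. POU3F4 had 4 UMIs in each band, too few for a ratio.

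Partners of the encoded proteins were not set apart from all genes tested. Of 14 genes for ligands, co-receptors, GTPases and kinases, 1 (7.14%) was at least 1.5-fold higher and 0 were lower. The shares over all genes tested were 5.51% and 9.81%. The higher gene was NLGN1, which encodes a synaptic neuroligin, with 1.23 and 2.36 CPM on 46 and 90 UMIs (log2 ratio 0.94). DCC, the netrin co-receptor, measured 449 and 519 CPM (0.21). FLRT2 and FLRT3, which encode ligands of UNC5D, had 35 and 46 UMIs and 37 and 31 UMIs.

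Excitatory nuclei were split into 20 subclusters without the use of the 6 genes, and 19 of these held at least 30 nuclei. They are named here by their leading genes. CUX2 divided them sharply: 11 subclusters lay between 451 and 996 CPM (both libraries pooled) and 8 between 6.04 and 56.2 CPM, with none between. The highest was the small TLL1/STK32B/RGS12 subcluster, with 16 and 19 nuclei and 816 and 1143 CPM. The PDGFD/MEGF10/MME subcluster followed with 866 and 947 CPM, and the lowest, GFRA1/TRPC7/HTR4, had 3 and 6 CUX2 UMIs in 72 and 85 nuclei.

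The 11 subclusters with high CUX2 held 1377 of 3186 excitatory nuclei in the upper band, or 43.2% (41.5 to 45.0). In the deeper band they held 2922 of 3453, or 84.6% (83.4 to 85.8). Within these nuclei CUX2 measured 641 and 693 CPM, and its log2 ratio was 0.11 against 1.00 over all excitatory nuclei. The dividing line was placed after the levels had been seen, so the shares are a description. The subclusters were sorted by CUX2 itself, so a small CUX2 ratio inside them is partly fixed by the sorting. Their mix also still differed between bands, with 70 and 514 nuclei in ZNF536/VWA2/SNCAIP and 239 and 221 in PDGFD/MEGF10/MME. Inside the high-CUX2 subclusters UNC5D measured 163 and 268 CPM (log2 ratio 0.71, 0.65 to 0.78). MDGA1 had a ratio of 0.57 (0.33 to 0.82) there and LAMP5 one of 0.38 (0.29 to 0.47). RASGRF2 stood at 0.30 (0.27 to 0.34) and POU3F2 at -0.04 (-0.44 to 0.37).

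To hold the mix of subclusters equal, each subcluster was weighted alike in both bands, over the 13 subclusters with at least 30 nuclei in each library. These held 82.5% of upper-band and 96.2% of deeper-band excitatory nuclei. CUX2 then measured 457 and 487 CPM (log2 ratio 0.09, 0.05 to 0.13), where the same subclusters without weighting gave 0.82. RASGRF2 measured 536 and 544 CPM (0.02, -0.01 to 0.06), in place of 0.68. With the same subcluster weights in both bands these genes thus kept little of their band difference.

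UNC5D and LAMP5 kept a small difference under the same weighting. UNC5D measured 163 and 198 CPM (log2 ratio 0.28, 0.22 to 0.34), where the unweighted value was 0.88. LAMP5 measured 72.8 and 90.8 CPM (0.32, 0.23 to 0.41), where it was 0.65. MDGA1 and POU3F2 had weighted log2 ratios of 0.14 (-0.10 to 0.38) and 0.05 (-0.36 to 0.46), and their counts leave these intervals wide.

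The UNC5D level was higher in the deeper band in 9 of the 13 subclusters, with 6 intervals above 0 and 0 below. In the POU2F3/PTGIS/BBOX1 subcluster, with RORB among its leading genes, UNC5D measured 249 and 406 CPM (log2 ratio 0.71, 0.53 to 0.89). In ANGPT1/SYT10/DOC2B it measured 172 and 271 CPM (0.65, 0.46 to 0.84), and in WLS/ASS1/PLCXD2 364 and 495 CPM (0.44, 0.21 to 0.68). In CYP2S1/SYT2/HNF4G it was level at 251 and 249 CPM. LAMP5 was higher in the deeper band in 11 of the 13 subclusters, with 5 intervals above 0. Its interval was below 0 in RXFP1/BMPR1B/FOXP2 (-1.22, -2.59 to -0.09). In oligodendrocytes LAMP5 measured 30.5 and 40.3 CPM (0.40, -0.02 to 0.84), with an interval that includes 0. The part of free RNA in the LAMP5 values was not tested.

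**Figure D2:**
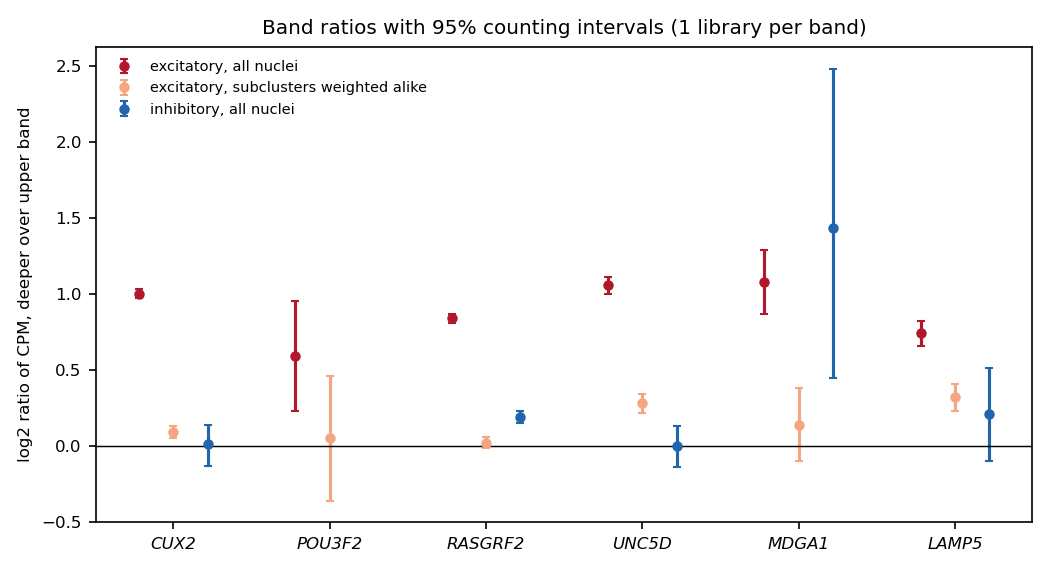
Log2 ratio of CPM, deeper over upper band, for each gene over all excitatory nuclei (dark red), over excitatory nuclei with 13 subclusters weighted alike (salmon) and over all inhibitory nuclei (blue, without POU3F2, which had 6 UMIs there). Whiskers are 95% counting intervals. The 6 dark red points lie between 0.59 and 1.08, and the salmon points between 0.02 and 0.32.

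Although the 6 genes are grouped as markers of the same layers, they marked different excitatory subclusters. RASGRF2 was highest in WLS/ASS1/PLCXD2 with 1099 CPM (libraries pooled), ZNF536/VWA2/SNCAIP with 1097 CPM, OCLN/TANC1/MEGF11 with 1066 CPM and ANGPT1/SYT10/DOC2B with 1020 CPM. In the PDGFD/MEGF10/MME subcluster, where CUX2 was near its peak, RASGRF2 was only 168 and 216 CPM. The reverse was seen in TMEM132C/PTH1R/COL8A1, where RASGRF2 was 500 and 555 CPM and CUX2 13.3 and 7.56 CPM. Both patterns were seen in each library.

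MDGA1 was the most restricted of the genes. It peaked in ANGPT1/SYT10/DOC2B with 36.1 and 37.3 CPM, and this subcluster together with WLS/ASS1/PLCXD2, ZNF536/VWA2/SNCAIP and OCLN/TANC1/MEGF11 was also the set with most RASGRF2. SH3BP4/LGR5/IQGAP2 gave 0 MDGA1 UMIs in 472 and 146 nuclei, and PDGFD/MEGF10/MME gave 0 and 1 UMI in 239 and 221 nuclei. A site outside the CUX2 subclusters was GFRA1/TRPC7/HTR4, with 23.9 and 23.2 CPM of MDGA1 and the lowest CUX2 of all. OCLN/TANC1/MEGF11 has the glial genes AQP4 and MEGF11 among its leading genes. Without the 3 excitatory subclusters whose leading genes include one from the glial marker lists, an alternative chosen after seeing the data, the MDGA1 band log2 ratio was 1.40 in place of 1.08. These 3 include RXFP1/BMPR1B/FOXP2, with FOXP2 and SYT6 among its leading genes. It held 418 and 114 nuclei and 42 and 10 MDGA1 UMIs. The part of each subcluster in the change was not tested.

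UNC5D was highest in WLS/ASS1/PLCXD2 (469 CPM pooled), followed by POU2F3/PTGIS/BBOX1 (375 CPM) and ZNF536/VWA2/SNCAIP (372 CPM). The subclusters at ranks 8 to 13 for UNC5D ran only from 129 down to 105 CPM, and neighbours in that stretch did not differ beyond their counting error. LAMP5 was the most even, with 7 subclusters between 98.6 and 114 CPM and a lowest value of 10.1 CPM in GFRA1/TRPC7/HTR4. POU3F2 had at most 30 UMIs per band in any subcluster, and its order rests on few molecules: the first place of TLL1/STK32B/RGS12, at 10.6 CPM, is 1 and 3 UMIs.

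**Figure D3:**
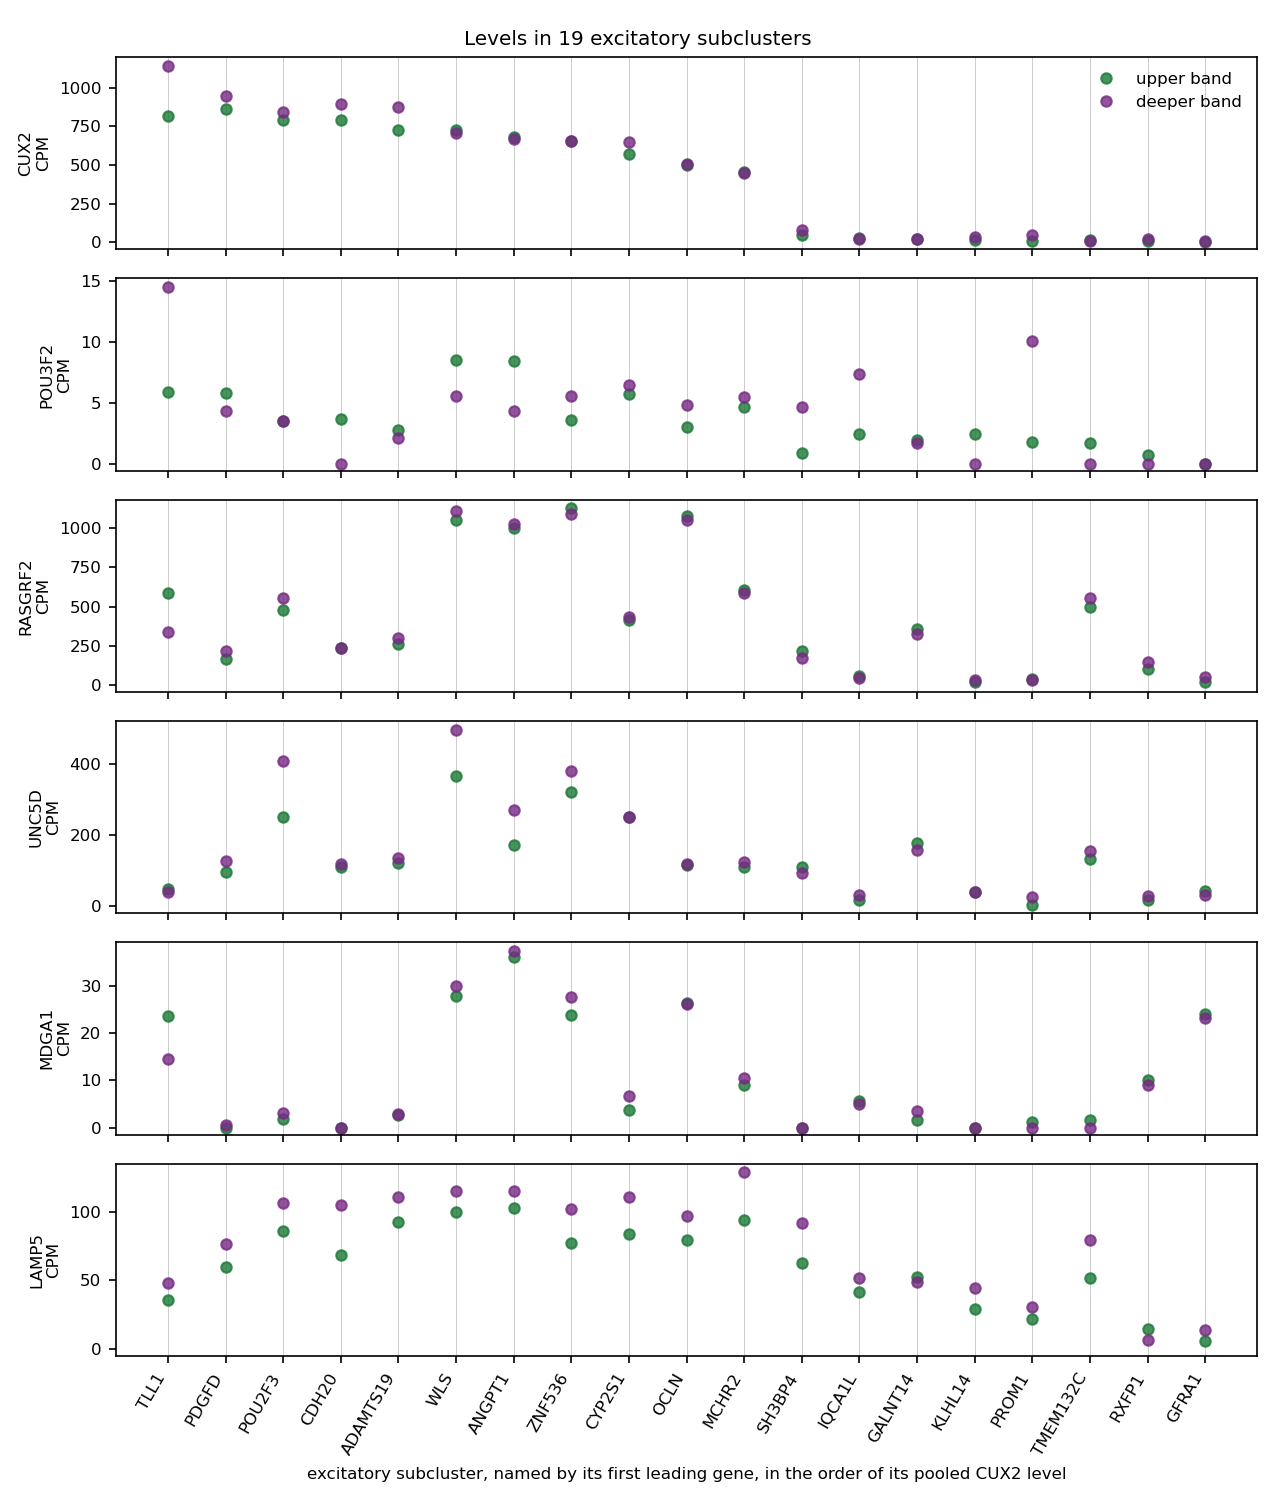
CPM of each gene in the 19 excitatory subclusters with at least 30 nuclei, ordered by pooled CUX2 level, with the upper band in green and the deeper band in purple. CUX2 drops from 451 to 56.2 CPM between MCHR2 and SH3BP4, RASGRF2 and MDGA1 are low in several subclusters with high CUX2, and the deeper band lies above the upper band in most subclusters for LAMP5.

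Over the 19 subclusters, the correlation of log2(CPM + 1) described which genes had like patterns. The points share the 2 libraries, their depth and their clustering, so r is a description. POU3F2 had only 110 and 169 UMIs over all excitatory nuclei, so its r values rest on few molecules. CUX2 correlated with LAMP5 at r = 0.80, POU3F2 at 0.79, RASGRF2 at 0.70 and UNC5D at 0.65, but with MDGA1 at only 0.24. RASGRF2 and UNC5D stood at 0.81. CUX2 stood at -0.80 with FEZF2, and LAMP5 at -0.87 with FOXP2. MDGA1 was weakly related to every other gene of the set, with r from 0.06 for LAMP5 to 0.47 for RASGRF2.

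Among 7921 genes compared, the pattern most like CUX2 was that of THBS4 (r = 0.90), which encodes a thrombospondin, followed by IQCJ (0.89) and the fibrillin gene FBN2 (0.88). RASGRF2 was most like CTNNAL1 (0.96), the adhesion gene CADM2 (0.93) and the actin cross-linker gene ACTN4 (0.92). UNC5D was most like the semaphorin receptor gene PLXND1 (0.90), the serotonin receptor gene HTR2A (0.89) and GOLIM4 (0.87). LAMP5 was most like CA10, C21orf91 and MGAT5B (0.95, 0.95 and 0.94). MDGA1 was most like SIPA1L1, CACNB1 and GHR (0.83, 0.82 and 0.81), and POU3F2 most like SEC14L1, MICAL3 and UNC13A (0.89, 0.88 and 0.87). The POU3F2 values again rest on its few UMIs.

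Nuclei that carried several of the genes at once were far more frequent in the deeper band. With excitatory nuclei thinned to 5000 UMIs, 3 or more of the 6 genes were detected in 24.5% (23.0 to 26.1) of 3063 upper-band nuclei and in 58.3% (lower bound 56.6%) of 3308 deeper-band nuclei. None of the 6 was detected in 22.3% and 5.71%. In 880 and 633 inhibitory nuclei, 3 or more were detected in 15.7% (13.3 to 18.3) and 16.4% (13.6 to 19.6), and the intervals overlap. All 6 genes together were seen in 0 upper-band and 1 deeper-band excitatory nucleus.

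**Figure D4:**
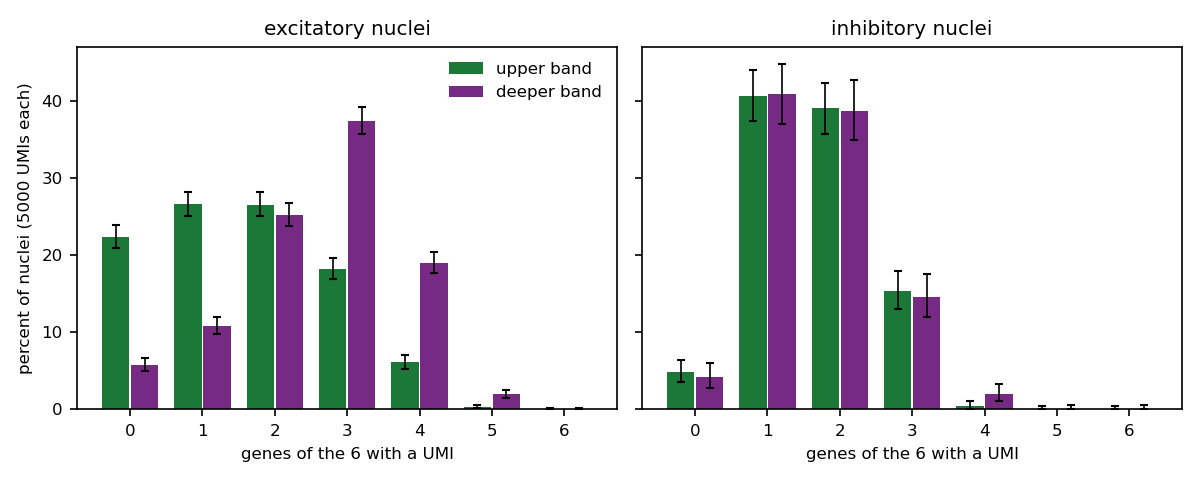
Percent of nuclei, each thinned to 5000 UMIs, by the number of the 6 genes with a UMI, in excitatory (left) and inhibitory (right) nuclei of the upper (green) and deeper (purple) band, with exact 95% binomial intervals. Excitatory nuclei with 3 of the genes made up 18.2% of the upper and 37.4% of the deeper band, while the inhibitory distributions nearly coincide.

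Most pairs of the genes met in the same excitatory nucleus more often than their separate shares would give. CUX2 and RASGRF2 were found together in 970 upper-band nuclei, where the product of their shares gives 728, a ratio of 1.33 (1.26 to 1.40). In the deeper band they met in 2179 nuclei against 2033, a ratio of 1.07 (1.05 to 1.10). RASGRF2 was present in 72.1% of CUX2-positive and 40.0% of CUX2-negative nuclei of the upper band, and in 81.4% and 52.8% in the deeper band. The ratio has less room in the deeper band, where most nuclei carry CUX2, so the ratios of the bands are not set against each other.

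Of the 15 pairs, 10 had a ratio above 1 in both bands, 6 of these with both intervals above 1, and 0 pairs had both intervals below 1. For CUX2 the upper-band ratios ran from 1.26 with UNC5D to 1.76 (1.22 to 2.45) with POU3F2, and the deeper-band ratios from 1.03 with POU3F2 to 1.09 with UNC5D. RASGRF2 had its highest ratio with MDGA1 in both bands, 1.36 (1.07 to 1.71) and 1.22 (1.07 to 1.39), and its lowest with POU3F2, 1.05 and 0.91. RASGRF2 was present in 93.0% of the 227 deeper-band nuclei with MDGA1 and in 74.7% of those without.

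UNC5D met CUX2 at 1.26 in the upper band, its highest ratio there, and MDGA1 at 1.17 in the deeper band, and was lowest with POU3F2 at 0.89 and 1.01. LAMP5 was highest with CUX2 in the upper band at 1.38, and with CUX2 and RASGRF2 in the deeper band, both at 1.07. It was lowest with MDGA1 at 0.88 in the upper band and with POU3F2 at 0.90 in the deeper band. MDGA1 and POU3F2 met in 1 and 3 nuclei, where 1.42 and 4.19 were expected, too few to describe their relation. The highest MDGA1 ratio was 1.45 with CUX2 in the upper band and 1.22 with RASGRF2 in the deeper band.

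The excess of shared detection was no longer seen once subclusters were held fixed. When the expected number was summed over subclusters from the shares within each, CUX2 and RASGRF2 met in 970 nuclei against 956 expected in the upper band (ratio 1.01, 0.96 to 1.07) and 2179 against 2181 in the deeper band (1.00, 0.97 to 1.02). Of the 14 pairs with at least 10 expected nuclei in each band, all lay between 0.83 and 1.15 in the upper and between 0.86 and 1.05 in the deeper band. Then 0 pairs had both intervals above 1 and 0 had both below. This split was added after the pair values had been seen.

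**Figure D5:**
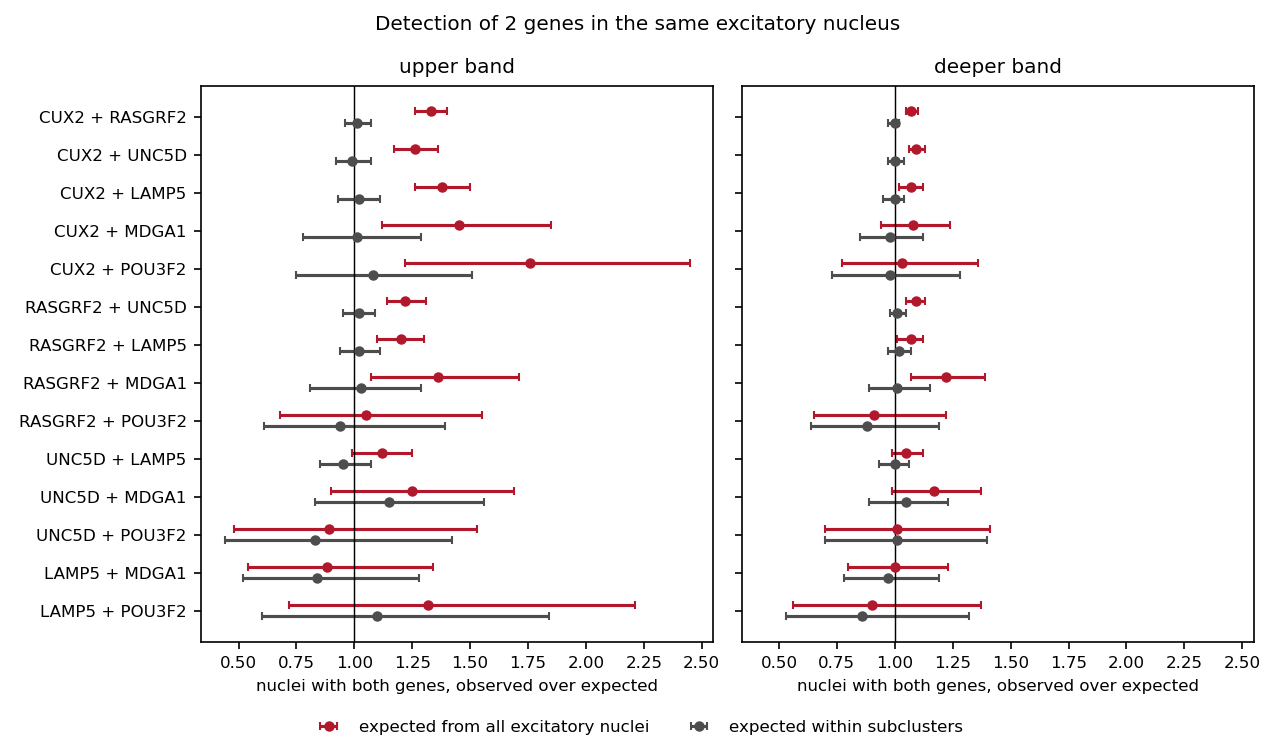
Number of excitatory nuclei (thinned to 5000 UMIs) with both genes of a pair over the number expected, for the 14 pairs with at least 10 expected nuclei per band, with 95% binomial intervals. In red the expected number comes from the shares over all excitatory nuclei, and in grey from the shares within each subcluster. CUX2 + RASGRF2 moves from 1.33 to 1.01 in the upper band and from 1.07 to 1.00 in the deeper band.

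With genes of other layers, CUX2 was the most exclusive. CUX2 and FOXP2 met in 21 upper-band nuclei against 185 expected (ratio 0.11, 0.07 to 0.17) and in 14 deeper-band nuclei against 94.7 (0.15, 0.08 to 0.25). With FEZF2 the CUX2 ratio was 0.25 in both bands. RASGRF2 avoided these genes less, with 0.56 and 0.47 for FOXP2 and 0.60 and 0.61 for FEZF2. UNC5D had 0.42 and 0.43 with FOXP2 and 0.61 and 0.45 with FEZF2, and LAMP5 0.43 and 0.40 with FOXP2 and 0.75 and 0.52 with FEZF2. Nuclei with a deep-layer gene thus carried each of these 4 genes less often in both bands.

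RORB, a factor of layer 4 neurons, separated the genes. CUX2 was found with RORB more often than expected, at 1.54 (1.44 to 1.65) in the upper and 1.12 (1.07 to 1.17) in the deeper band. UNC5D did likewise at 1.30 and 1.15, while RASGRF2 stood at 1.01 (0.93 to 1.08) and 0.93 (0.88 to 0.97). LAMP5 had 1.27 and 1.05. MDGA1 went against RORB, with 12 nuclei against 32.4 expected in the upper band (0.37, 0.19 to 0.65) and 50 against 99.9 in the deeper band (0.50, 0.37 to 0.66). POU3F2 had 1.46 (0.90 to 2.23) and 1.08 (0.72 to 1.55) with RORB and at most 6 nuclei with either deep-layer gene. MDGA1 had 0.81 and 0.50 with FOXP2 and 0.53 and 0.29 with FEZF2, with intervals that reach above 1.

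In inhibitory nuclei the bands differed little. CUX2 measured 122 and 123 CPM (log2 ratio 0.01, -0.13 to 0.14). UNC5D measured 133 and 133 CPM (0.00, -0.14 to 0.13). These intervals leave out a difference as large as that in excitatory nuclei. RASGRF2 was slightly higher in the deeper band over all inhibitory nuclei, at 1194 and 1365 CPM (0.19, 0.15 to 0.23). With 10 inhibitory subclusters weighted alike in both bands its ratio was 0.00 (-0.05 to 0.05). LAMP5 measured 23.3 and 26.9 CPM (0.21, -0.10 to 0.51). POU3F2 had 1 and 5 UMIs, too few for a ratio.

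MDGA1 was the exception, with 14 UMIs (1.63 CPM) and 27 UMIs (4.40 CPM) and a ratio of 1.43 (0.45 to 2.48). Of the 5 genes with at least 20 UMIs, 1 was at least 1.5-fold higher in the deeper band and 0 were lower. Among 14077 genes tested in inhibitory nuclei, 5.46% were at least 1.5-fold higher and 6.61% at least 1.5-fold lower. A single gene of 5, on 14 and 27 UMIs, does not set the group apart from that background. Without doublet removal the CUX2 ratio was 0.68 and the LAMP5 ratio 0.76, so the level values of CUX2 and LAMP5 depend on taking out nuclei that resemble mixtures.

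Of the listed genes in inhibitory nuclei, the paralog UNC5B measured 25.4 and 44.2 CPM (log2 ratio 0.80, 0.53 to 1.06) and was the 1 of 5 paralogs at least 1.5-fold apart. The synaptotagmin gene SYT6 (-0.81, -1.23 to -0.40) was lower in the deeper band. FREM3, GLP2R, FEZF2, CRYM and FLRT3 were also past 1.5-fold, on at most 23 UMIs per band and with intervals that include 0.

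Inhibitory neurons fell into an MGE-like group (718 and 515 nuclei) and a CGE-like group (229 and 228 nuclei), and the genes took sides between these. CUX2 measured 156 and 161 CPM in MGE-like nuclei and 41.4 and 17.6 CPM in CGE-like nuclei, so that the CGE level was 0.265 and 0.109 times the MGE level. RASGRF2 was also higher in MGE-like nuclei, with 1423 and 1642 CPM against 716 and 624 CPM. UNC5D measured 149 and 154 CPM in MGE-like and 125 and 86.4 CPM in CGE-like nuclei.

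By band, the MGE-like nuclei were level for CUX2 (log2 ratio 0.04, -0.10 to 0.18) and UNC5D (0.04, -0.10 to 0.19). LAMP5 measured 16.5 and 26.1 CPM there (0.66, 0.27 to 1.06), but without the TEX15/COL9A2/POSTN subcluster, which gave 48 and 78 of its UMIs, it measured 9.19 and 9.52 CPM (0.05, -0.58 to 0.66). With 10 inhibitory subclusters weighted alike, MGE-like and CGE-like together, LAMP5 measured 13.5 and 9.31 CPM (-0.54, -1.07 to 0.00). The minimum of 30 nuclei in each library left out TEX15/COL9A2/POSTN (29 upper-band nuclei) and NDNF/SEMA3C/PROK2 (27 deeper-band nuclei). These 2 subclusters had the highest LAMP5 levels, so the weighted ratio covers only subclusters with little LAMP5. In CGE-like nuclei CUX2 was lower in the deeper band (-1.24, -1.97 to -0.55) on 68 and 24 UMIs. UNC5D had a ratio of -0.54 (-0.88 to -0.20) there, but 121 of its 206 upper-band UMIs came from the 15 nuclei of CILP2/IL1R2/CADPS2. Without that subcluster UNC5D measured 59.5 and 81.5 CPM and its ratio turned to 0.45 (0.03 to 0.88). MDGA1 was higher in deeper-band CGE-like nuclei, with 6 and 18 UMIs (1.85, 0.46 to 3.47), and 16 of its deeper-band UMIs came from the COL5A3/SCGN/TAC3 subcluster of 61 nuclei. Without it 4 and 2 UMIs remained (-0.58, -4.05 to 2.22). RASGRF2 had a ratio of 0.21 (0.16 to 0.25) in MGE-like and of -0.20 (-0.33 to -0.07) in CGE-like nuclei. Without MYLK/PDYN/CCNJL the CGE-like RASGRF2 ratio was -0.05 (-0.18 to 0.09). Leaving out single subclusters was added after seeing the data.

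Single inhibitory subclusters stood out for most of the genes, ranked here by the level pooled over both bands among the 16 with at least 30 nuclei. CUX2 was highest in the MGE-like RXFP2/DSC3/PARD3B subcluster, with 415 and 407 CPM, and lowest in the CGE-like MYLK/PDYN/CCNJL subcluster, with 22.8 and 2.28 CPM. RASGRF2 reached 1963 and 2001 CPM in CBLN4/TRHR/GLI3 and 1981 and 1940 CPM in PTPN14/MME/CEMIP, both MGE-like. UNC5D was highest in CHODL/CDH1/HMCN2, with 487 and 679 CPM in only 22 and 12 nuclei. LAMP5, which in many mammals marks a class of inhibitory neurons of its own, was highest in the MGE-like TEX15/COL9A2/POSTN subcluster with 184 and 241 CPM in 29 and 40 nuclei. That subcluster also has the oligodendrocyte gene ST18 among its leading genes, and the part of oligodendrocyte RNA in its LAMP5 level was not tested. LAMP5 was next highest in NDNF/SEMA3C/PROK2, with 89.6 and 107 CPM in 75 and 27 nuclei.

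The NDNF/SEMA3C/PROK2 subcluster, which met neither the MGE nor the CGE rule, was low for the other genes. In the same pooled ranking it had the lowest RASGRF2 (262 and 367 CPM), the lowest UNC5D (8.67 and 8.24 CPM) and 0 UMIs of MDGA1 and POU3F2, while ADARB2, a CGE marker, stood at 892 and 845 CPM. LAMP5 met ADARB2 at 2.26 (1.71 to 2.92) times the expected number in the upper band and at 2.12 (1.51 to 2.89) in the deeper band. CUX2 met ADARB2 at 0.48 and 0.39 and met SST, a marker of MGE-derived neurons, at 1.23 and 1.25. Between the inhibitory groups themselves, LAMP5 measured 16.5 and 26.1 CPM in MGE-like and 21.3 and 15.4 CPM in CGE-like nuclei, so its order differed between the bands.

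Pairs of the 6 genes showed little of the excitatory pattern in inhibitory nuclei. A ratio above 1 in both bands was found for 5 of 15 pairs, with 0 pairs having both intervals above 1, and only 6 pairs had at least 10 expected nuclei in each band. Among those 6, CUX2 and UNC5D had the highest ratio, at 1.15 (0.96 to 1.37) and 1.26 (1.02 to 1.52). RASGRF2 and LAMP5 were at 0.77 (0.59 to 1.00) and 0.87 (0.65 to 1.14), where they had been at 1.20 and 1.07 in excitatory nuclei. RASGRF2 was found in 87.5% to 97.1% of inhibitory nuclei with or without CUX2, which leaves its ratios little room above 1.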

How the data were processed

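The authors deposited, for each library, unnormalized UMI counts by gene and barcode, as whole numbers, per the file headers. A header names software version 3.1.0, and the submitters' processing notes name Cell Ranger 2.1.1 and 6.2.1. The genome build, annotation and use of intronic reads are not given in the sources used here. No coordinates or sequences are printed, because no genome or sequence table of the files' build was used here.

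Barcodes under 500 detected genes were dropped, which left 7091 and 9608. Scrublet (scanpy 1.11.5, automatic threshold) removed 830 (11.7%) and 1458 (15.2%) of these, against expected rates of 5.67% and 7.69%. It was run per library. No correction for free RNA was made. After scaling each nucleus to 10000 UMIs and taking logs, 2000 variable genes without the 6 genes and the layer lists gave 30 principal components, 15 neighbours and Leiden clusters at resolution 1 (igraph 0.11.9, Python 3.11.15). A marker counted as raised in a cluster at 1/3 or more of its highest CPM over clusters with a UMI in at least 10% of nuclei. A cluster took the class with most raised markers, and stayed unnamed with under 3, with a tie, where another class had more markers among the leading genes or many raised ones, or at low depth without an own leading marker. Excitatory and inhibitory nuclei were clustered again in the same way.

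For each class the UMIs of a library were added up and expressed as CPM. Intervals are exact Poisson for levels, Clopper-Pearson (exact binomial) for shares and conditional binomial for log2 ratios, all at 95% and for counting error only. The ratio code was tested on simulated data. Genes were not compared with each other by level, since lengths were not used. Genes with at least 20 UMIs over both libraries entered the background counts. With 1 library per band no test was made. The correlations used log2(CPM + 1) over subclusters with at least 30 nuclei, and genes with at least 200 UMIs in each library.

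The 6 genes, the gene lists and the measures were chosen with earlier results of these data known. Named were the 6 genes, for each the pair partners with the highest and lowest ratio, RORB, FEZF2 and FOXP2, the 3 genes of most similar pattern, all paralogs, and listed genes at least 1.5-fold apart. PLXND1, SCNN1A, DCC, FLRT2, FLRT3, SST and ADARB2 were named besides, after their values had been seen. Of the listed genes, CUX1, POU3F1 and POU3F3 among the paralogs had no row under those symbols. Some listed genes are not reported here.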

Additional observations from a re-analysis of the deposited data

How the results depend on the processing

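No paired analysis was possible because each band had 1 library, and for the same reason no library could be left out. In excitatory nuclei the median log2 ratio of the 6 genes stayed between 0.92 and 0.97 over 10 alternatives (doublet handling, gene minimum, scaling, thinning, clustering), and 5 or 6 genes were at least 1.5-fold higher. The share of all genes at least 1.5-fold higher in excitatory nuclei was 11.8% with a minimum of 1 UMI and 2.92% with a minimum of 200, and of those lower 17.4% and 4.95%. In inhibitory nuclei these were 12.8% and 1.77% higher, and 17.2% and 1.28% lower. Fewer UMIs per gene admit more chance ratios by construction. Without doublet removal the inhibitory median was 0.68 in place of 0.19, and 3 genes in place of 1 were at least 1.5-fold higher; the cause was not tested. Pairs above 1 in both bands numbered 4 in place of 10 when expected numbers were taken within subclusters, an alternative added after seeing the data. Values near 0 changed sign within their intervals: inhibitory CUX2 went from 0.01 to -0.12 when CPM was averaged over nuclei, and with Leiden resolution 2 the weighted excitatory ratio went from 0.02 to -0.01 for RASGRF2 and from 0.05 to -0.06 for POU3F2. For single genes, 108 alternative values stayed within counting error and 15 moved beyond it. For the headline values (medians, counts, shares of all genes and numbers of pairs), 50 alternative values stayed the same and 11 moved. Depth limits POU3F2 and MDGA1, and POU3F2 in inhibitory nuclei was not compared.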
